A study of Mus musculus with 18 samples.

Results

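The genes described here are 36 mouse genes of cholesterol and fatty acid synthesis, of their control by sterol regulatory element-binding proteins (SREBPs) and of sterol efflux, followed in naive CD4+ T cells after the adaptor LAT was deleted or point-mutated. A probe belonged to a gene when its RefSeq accession mapped to the gene's symbol, and the probe with the highest mean over the 18 arrays stood for the gene. In this way 35 of the 36 genes were measured, out of 17062 named genes, and all 35 were well above background on every array. Idi1, the isomerase after mevalonate decarboxylation, had no matching probe and was not analysed here.

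LAT is the membrane adaptor that connects the T cell receptor to its downstream pathways, and the Y136F change removes the tyrosine that recruits phospholipase C-gamma 1. All mice were C57BL/6 and received tamoxifen for 1 or 4 weeks. By the titles, LAT KO mice were ERCre+ LAT f/-, Y136F mice were ERCre+ LAT f/m and WT mice were ERCre- LAT f/-, while the series text gives Cre ER+ for all of them, and if the titles are right, Cre and the LAT alleles cannot be told apart in comparisons with WT. The promoter that drives the inducible Cre, and the ages of the mice, are not given in the sources used here. CD44low CD4+ cells were sorted from spleen, and each of the 6 groups (LAT KO at 4 and 1 weeks, Y136F at 4 and 1 weeks, WT at 4 and 1 weeks) held 3 mice with 1 single-colour Agilent array each.

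Cholesterol is built from acetyl-CoA through mevalonate, farnesyl diphosphate, squalene and lanosterol, and fatty acids from acetyl-CoA through malonyl-CoA. When membrane sterol is low, SCAP carries SREBPs to the Golgi, where they are released to induce the genes of both routes, and INSIG proteins hold SCAP back when sterol is high. Liver X receptors (LXRs) work against sterol accumulation and induce sterol efflux and removal of lipoprotein receptors. Growing and dividing T cells are known to need newly made membrane lipid, whereas resting naive cells need little.

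Arrays were of similar brightness, with a 75th percentile of 1124 to 1896 intensity units, and the share of spots well above background ran from 84.2% to 97.9%. LAT KO replicate 3 at 1 week stood apart with 7888 outlier spots, against 187 to 952 on the 17 other arrays. Of the naive CD4 T cell markers, 10 of 10 were measured and above background on all arrays. Lat itself had a scaled log2 signal (log2 of the processed signal minus the array's 75th percentile) of 2.32 to 3.19 in LAT KO cells and 3.86 to 4.43 in Y136F cells, against 2.75 to 3.85 in WT cells, over both times (1 LAT KO value is from an outlier spot); where the probe lies relative to the deleted part is not given in the sources used here, so it does not check the deletion. The labels give female for every Y136F mouse, male for all 4-week LAT KO and WT mice, and both sexes within the 1-week LAT KO and WT groups. Genotype and sex can therefore not be told apart in the 4-week comparisons of Y136F. Sex-linked genes went against the sex label of 2 LAT KO arrays, replicate 1 at 1 week and replicate 2 at 4 weeks, and counts of called genes, medians and called genes of the 35 are also given without both arrays; other values of LAT KO cells include them. In sorted cells measured in bulk, fewer cells with a transcript and less transcript per cell cannot be told apart.

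Promoter sequence could be shown for some of the genes whose values follow. RefSeq windows (GRCm38.p6, 250 bases before to 50 after a start) were used for 28 of the 36 genes, in 37 windows, and not used here for Fdps, Fdft1, Sqle, Stard4, Scd1, Scd2, Fads1 and Abcg1. Searched on both strands, the sterol regulatory element core TCACNCCAC stood in 1 of the 37 windows (2.7%), that of Hmgcs1, and in 408 of all 32851 windows (1.24%). The NF-Y box CCAAT, which often accompanies such elements, stood in 21 of the 37 windows (56.8%), belonging to 20 genes, and in 37.4% of all windows. Hmgcs1 is shown because it alone held the core, Fasn because it was the only gene with a window that passed the test upwards in Y136F cells at 4 weeks, and Abca1 because it was the only gene that passed downwards. Each sequence runs 5′ to 3′ on the strand of its gene, with matches to either motif in capitals (an NF-Y box on the opposite strand reads ATTGG).
Hmgcs1, chr13:119690101-119690400, plus strand: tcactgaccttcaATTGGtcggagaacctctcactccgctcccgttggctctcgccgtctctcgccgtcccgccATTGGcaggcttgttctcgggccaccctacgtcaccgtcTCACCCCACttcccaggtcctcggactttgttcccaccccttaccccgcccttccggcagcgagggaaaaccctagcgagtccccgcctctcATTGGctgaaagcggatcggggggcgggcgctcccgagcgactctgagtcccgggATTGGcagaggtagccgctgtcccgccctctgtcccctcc
Fasn, chr11:120824498-120824797, minus strand: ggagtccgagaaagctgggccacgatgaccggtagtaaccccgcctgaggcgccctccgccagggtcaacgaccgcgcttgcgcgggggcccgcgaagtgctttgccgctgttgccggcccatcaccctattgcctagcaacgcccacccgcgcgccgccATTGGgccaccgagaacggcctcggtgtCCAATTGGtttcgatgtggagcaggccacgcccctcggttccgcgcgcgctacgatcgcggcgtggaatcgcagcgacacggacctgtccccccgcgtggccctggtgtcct
Abca1, chr4:53159846-53160145, minus strand: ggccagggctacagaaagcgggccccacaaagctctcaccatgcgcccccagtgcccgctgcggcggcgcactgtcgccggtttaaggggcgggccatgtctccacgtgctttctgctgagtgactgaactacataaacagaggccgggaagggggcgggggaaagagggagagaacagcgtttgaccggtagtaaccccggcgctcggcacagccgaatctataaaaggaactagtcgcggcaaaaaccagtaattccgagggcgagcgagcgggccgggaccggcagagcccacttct
The capitals mark 1 element core and 4 NF-Y boxes in Hmgcs1, with the core beginning at position -137 relative to the start, and 3 NF-Y boxes in Fasn. Neither motif occurred in the Abca1 window. Both motifs are short and a match is only a description of the letters.

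In Y136F cells after 4 weeks, 4 lipid synthesis genes were higher than in WT cells and 1 efflux gene was lower. The higher genes were Fdps, Sqle, Fasn and Scd2, which act in isoprenoid, sterol, palmitate and oleate synthesis. Their level was above that of WT cells by 0.60 to 0.86 on the log2 scale, 1.52- to 1.81-fold. The lower gene was Abca1, the transporter that exports cholesterol from the cell, at a log2 difference of -1.38, or 2.61-fold lower. These 5 genes were 14.3% of the 35, against 3.39% of the 31553 genes and unnamed sequences tested (limma, Benjamini-Hochberg adjusted p under 0.05). The 4 higher genes were 11.4% of the 35, against a background of 2.48% called higher, and the single lower gene stood against 0.916% called lower. The median difference was 0.23 over the 35 genes, 29 of them positive, and -0.19 over all features, 32.3% of them positive. In 14 of the 35 (40%) every Y136F array lay above every WT array, as in 9.35% of all features, and in 2 every Y136F array lay below, as in 16.7% of all features. All features include unnamed sequences and probes well above background on as few as 3 arrays. Here and below they are therefore not matched in brightness to the 35 genes, and the part of brightness in these contrasts was not tested.

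Among the mevalonate enzymes, Fdps, which makes farnesyl diphosphate, was the gene past the threshold. Its scaled log2 signal was -1.06, -0.73 and -0.83 in Y136F cells at 4 weeks, against -1.56, -1.85 and -1.55 in WT cells. The 3 Y136F arrays lay above all 3 WT arrays, and the difference was 0.78 ± 0.18 (SE; adjusted p = 0.0195). In the other groups Fdps stood at -1.58, -1.14 and -1.22 in LAT KO cells at 4 weeks, at -0.86 and -0.99 in LAT KO cells at 1 week (the third array had an outlier spot and was left out), at -1.46, -1.01 and -0.97 in Y136F cells at 1 week and at -1.43, -1.68 and -1.40 in WT cells at 1 week. Hmgcs1, the synthase that makes the precursor of mevalonate, had 0.97, 1.36 and 1.21 in Y136F cells at 4 weeks, against 0.67, 0.11 and 0.40 in WT cells. Its groups did not overlap, but the difference of 0.79 ± 0.21 fell just short of the threshold (adjusted p = 0.0524). Pmvk, which adds the second phosphate to mevalonate, was likewise just outside at 0.66 ± 0.18 (adjusted p = 0.0564). Mvk, the mevalonate kinase, differed by 0.45, while Mvd, the decarboxylase, and Acat2, a cytosolic thiolase, differed by -0.01 and 0.06. With 1 of 6 measured enzymes past the threshold, the group had a median difference of 0.56.

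**Figure D1:**
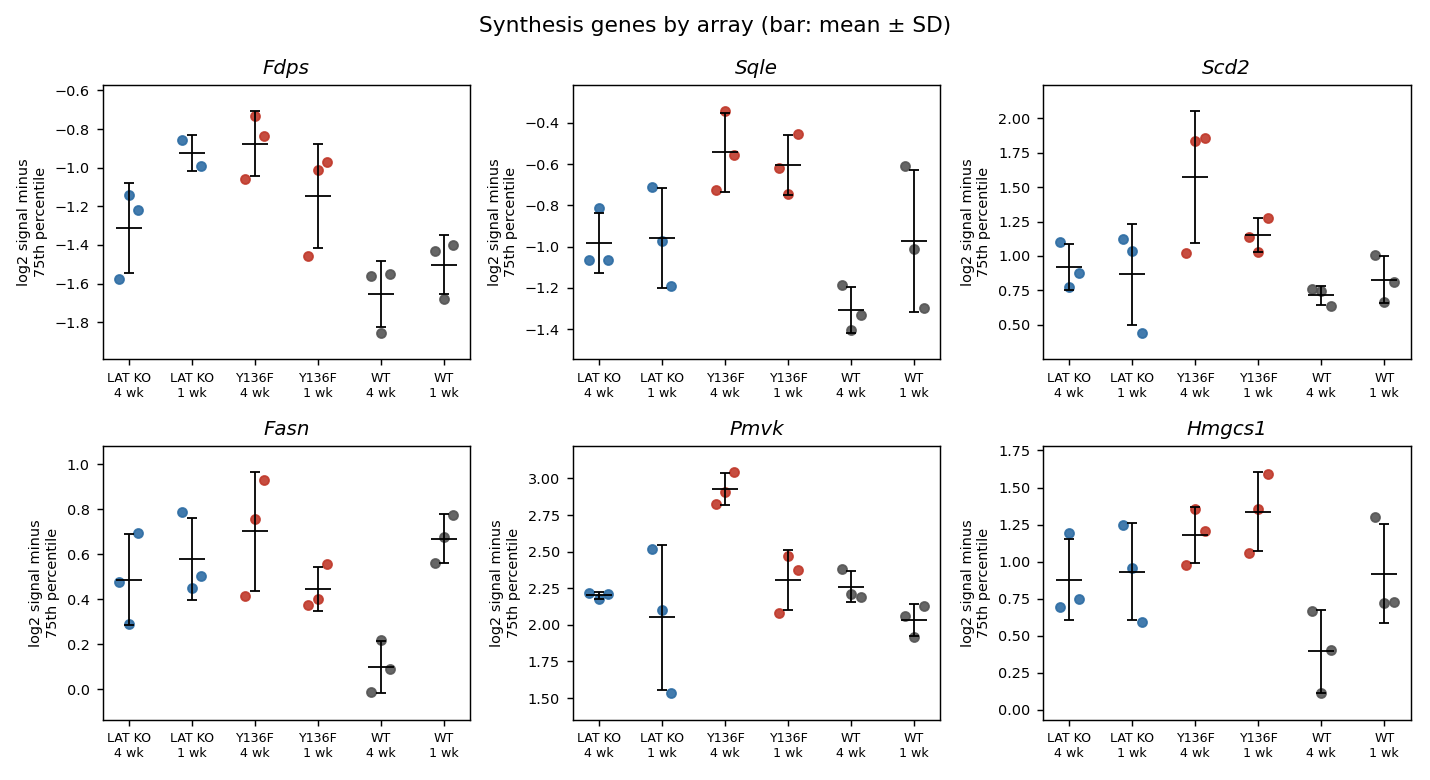
Scaled log2 signal (log2 processed signal minus the array's 75th percentile) of 6 synthesis genes on each of the 18 arrays; points are mice, bars are the mean ± SD of a group. In Fdps, Sqle, Scd2, Fasn, Pmvk and Hmgcs1 all 3 Y136F arrays of 4 weeks lie above all 3 WT arrays of 4 weeks, and WT cells at 4 weeks have the lowest mean of the 6 groups for Fdps, Sqle, Scd2, Fasn and Hmgcs1.

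On the way from squalene to cholesterol, Sqle was the one enzyme of 10 past the threshold. Squalene epoxidase, its product, catalyses the first oxygen-requiring step and is a control point of the pathway. Sqle had -0.73, -0.34 and -0.56 in Y136F cells at 4 weeks, against -1.19, -1.40 and -1.33 in WT cells, a difference of 0.77 ± 0.18 (adjusted p = 0.023) with no overlap. LAT KO cells stood between them at 4 weeks with -1.07, -0.81 and -1.07. At 1 week the values were -0.71, -0.97 and -1.19 in LAT KO cells, -0.62, -0.74 and -0.45 in Y136F cells and -0.61, -1.01 and -1.30 in WT cells, where Y136F and WT overlapped. Of the other 9 enzymes, 3 lay between the threshold and an adjusted p of 0.1: Cyp51, the lanosterol demethylase, at 0.64 (0.0684), Dhcr7, which completes cholesterol, at 0.58 (0.0712), and Nsdhl, a sterol C4 decarboxylase encoded on the X chromosome, at 0.62 (0.0756). Fdft1, which condenses farnesyl diphosphate to squalene, differed by 0.53, and Ebp, a sterol isomerase, by 0.20. Lss, the cyclase that closes the lanosterol rings, differed by 0.02 and Tm7sf2, a sterol reductase, by 0.08. Hsd17b7, a sterol ketoreductase, differed by 0.12 and Sc5d, a C5 desaturase, by -0.34. Replicate 2 of both groups had an outlier spot for Hsd17b7 and was left out of its value. A second, dimmer probe of Lss differed by 0.69 ± 0.17, with an adjusted p of 0.0322 in a fit of single probes. The median of the 10 was 0.37.

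None of the 6 genes of SREBP control and sterol transport passed the threshold (limma), although all 6 differences were positive, with a median of 0.27, and 3 had an unadjusted p under 0.05. Insig1, itself an SREBP target that retains SCAP in the endoplasmic reticulum, had -0.29, 0.05 and -0.23 in Y136F cells at 4 weeks, against -0.63, -0.93 and -0.94 in WT cells. The groups did not overlap and the difference was 0.68 ± 0.20 (adjusted p = 0.0868). Srebf2, which encodes the SREBP form directed mainly at sterol genes, differed by 0.31 and Srebf1, whose product acts mainly on fatty acid genes, by 0.24. Stard4, a cytosolic sterol carrier, differed by 0.48, whereas Insig2, the second INSIG gene, and Scap, the SREBP escort, differed by 0.09 and 0.03.

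Fatty acid synthesis held 2 called genes of 8. Scd2, a stearoyl-CoA desaturase that introduces the double bond of oleate, had 1.02, 1.84 and 1.86 in Y136F cells at 4 weeks, against 0.76, 0.74 and 0.64 in WT cells. All Y136F arrays were above all WT arrays, with replicate 1 the lowest, and the difference was 0.86 ± 0.21 (adjusted p = 0.0267). In the remaining groups Scd2 had 1.1, 0.77 and 0.88 in LAT KO cells at 4 weeks, 1.12, 1.03 and 0.45 in LAT KO cells at 1 week, 1.14, 1.03 and 1.28 in Y136F cells at 1 week and 1.00, 0.66 and 0.81 in WT cells at 1 week. Fasn, the multifunctional enzyme that makes palmitate, had 0.42, 0.76 and 0.93 in Y136F cells at 4 weeks, against -0.01, 0.22 and 0.09 in WT cells, a difference of 0.60 ± 0.15 (adjusted p = 0.0348). Its WT cells at 4 weeks were the only low group: Fasn had 0.48, 0.29 and 0.69 in LAT KO cells at 4 weeks, 0.79, 0.45 and 0.50 in LAT KO cells at 1 week, 0.38, 0.40 and 0.56 in Y136F cells at 1 week and 0.56, 0.68 and 0.77 in WT cells at 1 week. A second, dimmer Fasn probe differed by -0.03 between Y136F and WT cells at 4 weeks, so the Fasn call rests on 1 of its 2 probes, and the mean of both probes differed by 0.28 (adjusted p = 0.548). Acly and Acaca, which supply acetyl-CoA and malonyl-CoA, differed by 0.16 and 0.27, Elovl6, an elongase of palmitate, by 0.23, the second desaturase gene Scd1 by 0.20 and Fads1, a desaturase of polyunsaturated fatty acids, by 0.36. Fads2, its neighbour in that route, differed by -0.79 (adjusted p = 0.241), with 2.81, 2.68 and 2.29 in Y136F cells, against 2.94, 4.21 and 2.99 in WT cells, where replicate 2 stood apart.

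**Figure D2:**
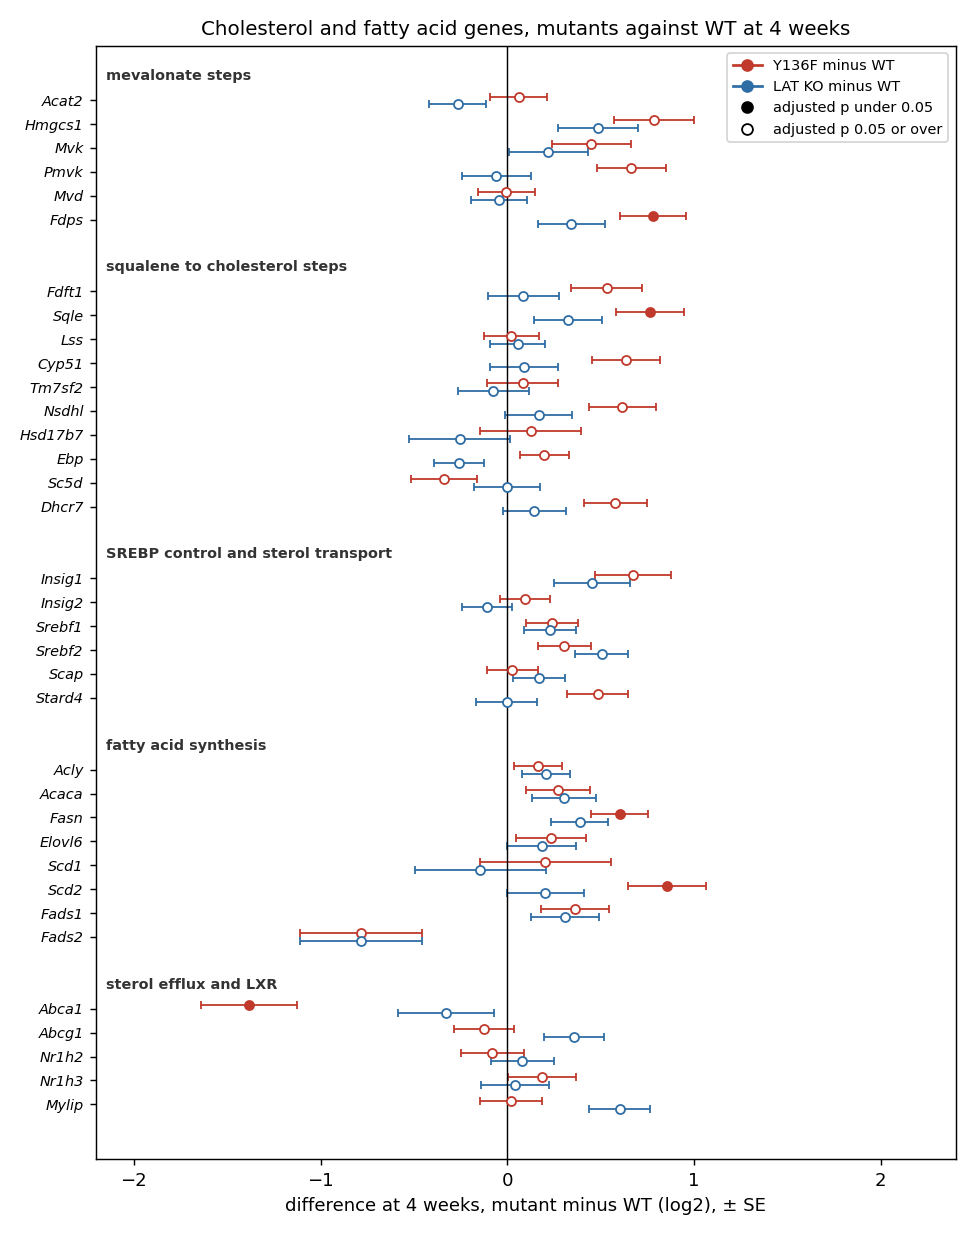
Differences from WT at 4 weeks for the 35 measured genes, ordered by role, on the log2 scale with their SE (limma); red is Y136F minus WT, blue is LAT KO minus WT, and filled points have an adjusted p under 0.05. The Y136F points of Fdps, Sqle, Fasn and Scd2 are filled on the positive side and that of Abca1 on the negative side, and no LAT KO point is filled.

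Of the 5 sterol efflux and LXR genes 1 passed the threshold, in the downward direction. Abca1 had -0.42, -0.53 and -0.50 in Y136F cells at 4 weeks, against 1.42, 0.85 and 0.43 in WT cells. The 3 Y136F arrays lay within a narrow range below every other array of the series, and the difference was -1.38 ± 0.26 (adjusted p = 0.00455). In the other groups Abca1 had 0.53, 0.87 and 0.31 in LAT KO cells at 4 weeks, 0.83, 1.58 and 0.41 in LAT KO cells at 1 week, 0.56, 0.98 and 0.86 in Y136F cells at 1 week and 0.79, 0.75 and 0.97 in WT cells at 1 week. Abcg1, its partner in efflux to high-density lipoprotein, differed by -0.13 between Y136F and WT cells at 4 weeks. Nr1h2 and Nr1h3, which encode both LXRs, differed by -0.08 and 0.19, and Mylip, an LXR target whose product degrades lipoprotein receptors, by 0.02.

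The Y136F and WT arrays of 4 weeks shared slides in 3 pairs, 1 of each per slide. Within these pairs 19 of 34 genes measured on all of them were higher in Y136F cells on every slide and 4 were lower on every slide. The pairs are the same arrays as in the comparison above, and the share over all features was not counted, so these counts add no separate support. Fdps differed by 0.50 to 1.12 within slides, Sqle by 0.46 to 1.06, Scd2 by 0.26 to 1.22, Fasn by 0.43 to 0.84 and Abca1 by -1.84 to -0.93. With labelled sex as a term, which only the 1-week LAT KO and WT mice inform, none of the 4 higher genes passed, with differences of 0.93 for Fdps (adjusted p = 0.333), 0.35 for Sqle (0.753), 0.53 for Scd2 (0.654) and 0.62 for Fasn (0.368), and Abca1 stood at -1.68 (0.0759). The median of the 35 genes was then 0.090, with 24 positive. When both LAT KO arrays with a contradicted sex label were also left out, Abca1 passed at -1.77 (0.0278) and the 4 others did not. Leaving out WT replicate 2, Y136F replicate 2 or Y136F replicate 3 gave 0 higher genes and leaving out WT replicate 3 gave 1, while Abca1 passed with each array left out in turn (-1.62 to -1.12).

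Genes of cell division and some markers of other cell types differed in the same cells, and their part in the lipid results was not tested. Of all features, 2.48% were called higher and 0.916% lower in Y136F than in WT cells at 4 weeks. Of 18 proliferation markers 12 were higher in Y136F than in WT cells at 4 weeks, with a median difference of 1.52, and their summed scaled signal was 56.8 to 66.2 in Y136F cells, against 20.4 to 29.0 in WT cells. Of 10 myeloid markers 1, S100a8, was higher (above background on 9 of the 18 arrays), and their summed signal was 5.26 to 9.05 in Y136F cells, against 5.13 to 6.00 in WT cells. Of 6 NK cell markers 1, Eomes, which effector T cells also express, was higher, with a summed signal of 6.59 to 8.39 in Y136F cells, against 7.88 to 8.78 in WT cells. None of 4 erythroid markers was called by limma, 1 having an unadjusted p under 0.05, but their summed signal did not overlap, at 1.82 to 5.26 in Y136F cells, against 0.98 to 1.67 in WT cells. The CD8 T cell marker measured, Cd8a, was not called and did not overlap either. Its scaled signal, on the linear scale as in the sums, was 0.51 to 0.58 in Y136F cells, against 0.43 to 0.50 in WT cells. None of 8 B cell markers was called by limma, 1 having an unadjusted p under 0.05 (summed signal 7.43 to 11.9, against 6.59 to 8.63 in WT cells). Of the naive cell genes Ccr7 was lower and Cd5 was higher, with a summed signal of the 10 naive CD4 T cell markers of 160.2 to 160.8 in Y136F cells, against 170 to 188 in WT cells.

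**Figure D3:**
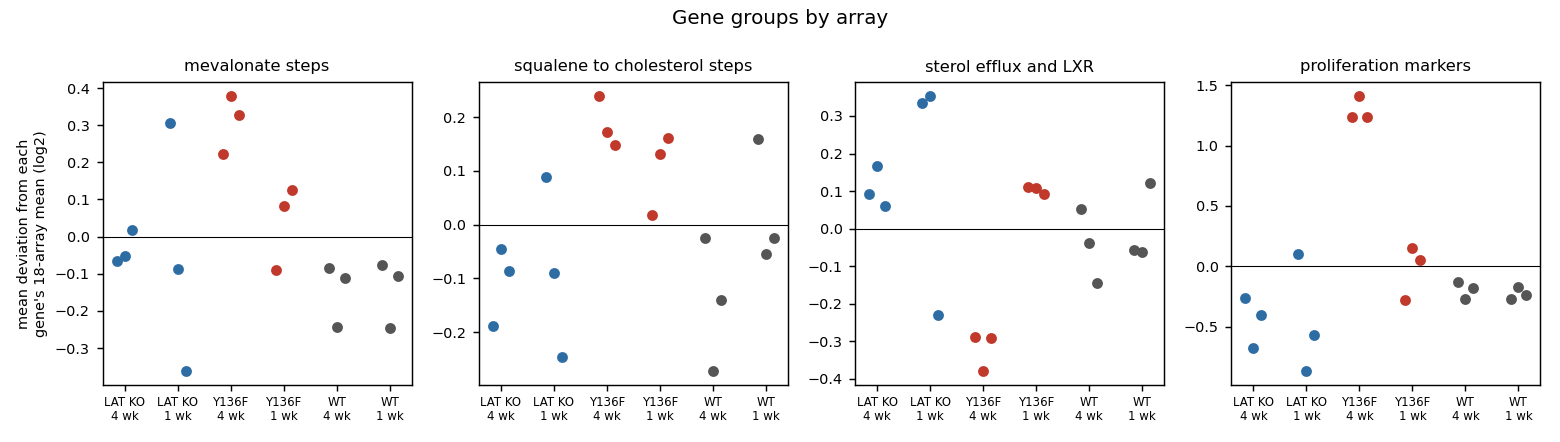
Mean deviation of each gene group from its genes' means over the 18 arrays (log2), 1 point per array, for 6 mevalonate genes, 10 squalene to cholesterol genes, 5 efflux and LXR genes and 18 proliferation markers. The 3 Y136F arrays of 4 weeks lie at 0.22 to 0.38 for mevalonate genes, at -0.38 to -0.29 for efflux and LXR genes and at 1.23 to 1.41 for proliferation markers.

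Between 4 and 1 weeks in Y136F cells, 3 of 35 genes differed (8.57%), close to the 7.66% of all features in that comparison. Pmvk was higher, as were 4.21% of all features, and Abca1 and Mylip were lower, as were 3.45%. Pmvk had 2.83, 2.91 and 3.04 at 4 weeks, against 2.08, 2.47 and 2.37 at 1 week, a difference of 0.62 ± 0.18 (adjusted p = 0.0476). Abca1 differed by -1.28 ± 0.26 (adjusted p = 0.00484) with no overlap. Mylip had 0.02, 0.40 and 0.43 at 4 weeks, against 1.16, 1.05 and 1.03 at 1 week, a difference of -0.80 ± 0.16 (adjusted p = 0.00571). In WT cells, Mylip was 0.14, 0.42 and 0.22 at 4 weeks, against 0.71, 0.55 and 0.61 at 1 week, and in LAT KO cells 0.88, 0.97 and 0.74 at 4 weeks, against 0.99, 1.15 and 0.45 at 1 week. Sqle, Fdps, Fasn and Scd2 were not called between the times in Y136F cells, at 0.06, 0.27, 0.26 and 0.42. All these mice were female by label. The Pmvk call was lost with each array left out in turn (0.51 to 0.70), while Abca1 and Mylip passed each time. Of the 18 proliferation markers 15 were higher at 4 than at 1 week, as were 5 of the 10 myeloid markers, and their part in these results was not tested.

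**Figure D4:**
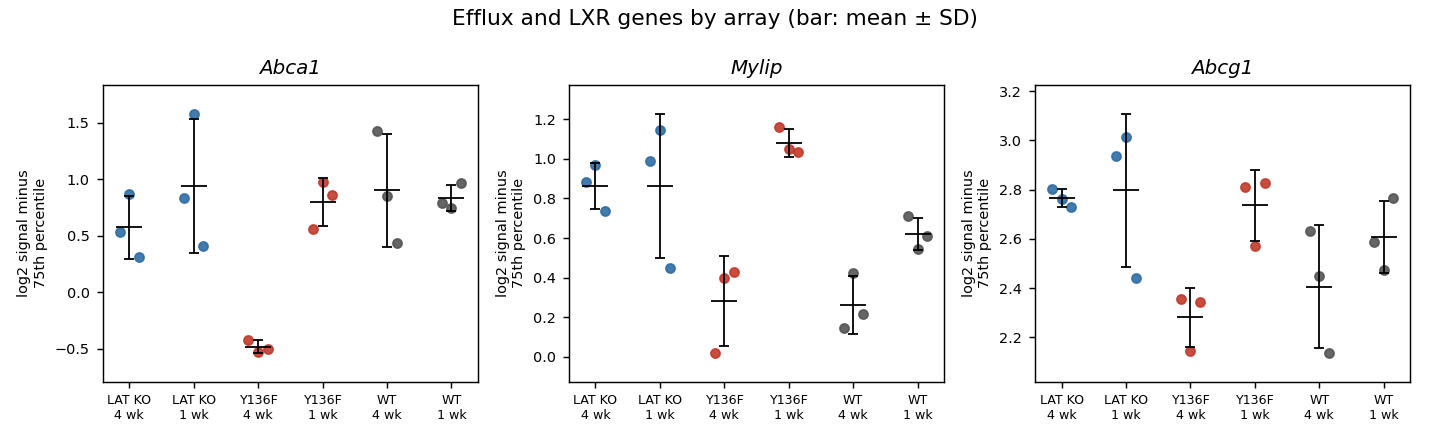
Scaled log2 signal of Abca1, Mylip and Abcg1 on each of the 18 arrays; points are mice and bars the mean ± SD of a group. Abca1 in Y136F cells at 4 weeks lies between -0.53 and -0.42, below the 15 other arrays, and Mylip is lower at 4 than at 1 week in Y136F cells.

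WT cells set the level against which the 4-week comparisons were read. Several synthesis genes stood lower there at 4 weeks than at 1 week, but 4 of the 6 mevalonate enzymes stood higher (median difference 0.09). No gene of the 35 passed the threshold, as none of all features did (limma, 0%), although 10 of the 35 and 6107 of 31557 features had an unadjusted p under 0.05. The median difference was -0.15, and 11 of 35 were positive. Over all features the median was 0.21, and 64.9% were positive. In 8 of the 35 every 4-week WT array lay below every 1-week WT array, against 10.7% of all features, and in 2 above, against 8.72%. Srebf2 had 0.12, 0.08 and 0.14 at 4 weeks, against 0.76, 0.63 and 0.68 at 1 week (difference -0.57, adjusted p = 0.121), and Fasn differed by -0.57 (adjusted p = 0.13). The mice of 4 weeks were male by label and 2 of the 3 mice of 1 week female. The change of the Y136F effect from 1 to 4 weeks was not called for any of the 35 genes, against 0.52% of all features; it was -1.35 ± 0.36 for Abca1 (adjusted p = 0.116), 0.95 for Dhcr7 (0.092), 0.83 for Fasn (0.103), 0.42 for Fdps (0.765), 0.40 for Sqle (0.813) and 0.53 for Scd2 (0.706).

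After 1 week no lipid gene passed the threshold between Y136F and WT cells. The count was 0 of 35 (limma), against 0.0158% of all features, and 3 had an unadjusted p under 0.05. The median difference was 0.05 with 20 of 35 positive, against -0.12 over all features with 33.2% positive. Insig1 was the most positive at 0.61 ± 0.20 (adjusted p = 0.525) and Scd1 the most negative at -0.57. Fdps and Sqle differed by 0.36 and 0.37, and Abca1 by -0.04.

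None of the 35 genes passed the threshold between LAT KO and WT cells (limma). At 1 week the background was 0.019% and the median difference -0.01, against -0.05 over all features. Of the 35, 1 gene, Fdps, had an unadjusted p under 0.05. Without LAT KO replicate 3, which had the many outlier spots, the median of the 35 was 0.078 with 20 positive. At 4 weeks the background was 0.0982% and the median difference 0.14, with 23 of 35 positive and 7 at an unadjusted p under 0.05. Over all features the 4-week median was -0.17 with 34.7% positive, and 3459 of 31574 had an unadjusted p under 0.05 (limma). In 11 of the 35 (31.4%) every LAT KO array of 4 weeks lay above every WT array, against 9.38% of all features, and in 4 below, against 13.8%. The widest positive differences were those of Mylip (0.60 ± 0.16, adjusted p = 0.234) and Srebf2 (0.51 ± 0.14, adjusted p = 0.243), and Hmgcs1, Insig1 and Fasn differed by 0.48, 0.45 and 0.39. The widest difference in either direction was that of Fads2 at -0.78, where every LAT KO array (2.45 to 2.83) lay below every WT array (2.94 to 4.21). Its size depended on WT replicate 2, the array at 4.21, and it ran from -1.23 to -0.37 over the alternative settings. On the 2 slides that held both groups, without that array, Fads2 differed by -0.54 to -0.11. Abca1 differed by -0.33 with overlapping groups. Between 4 and 1 weeks in LAT KO cells no gene was called (0% of all features) and none of the 35 had an unadjusted p under 0.05. The median of the 35 was -0.03, against 0.07 over all features. The change of the LAT KO effect was not called for any gene (0%). Without both LAT KO arrays of contradicted sex label, the count was 0 in each of these comparisons, and the median was -0.091 with 13 positive against WT at 1 week, 0.11 with 24 positive against WT at 4 weeks and -0.016 for 4 against 1 week.

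Set against each other at 4 weeks, LAT KO and Y136F cells differed in 2 of the 35 genes (5.71%), against 3.37% of all features. Pmvk was lower in LAT KO cells, where 2.32% of all features were lower, with 2.22, 2.18 and 2.21 in LAT KO cells, against 2.83, 2.91 and 3.04 in Y136F cells (-0.72 ± 0.18, adjusted p = 0.0353). In the other groups Pmvk had 2.52, 2.10 and 1.53 in LAT KO cells at 1 week, 2.38, 2.21 and 2.19 in WT cells at 4 weeks and 2.06, 1.92 and 2.13 in WT cells at 1 week. Abca1 was higher in LAT KO cells, where 1.04% of all features were higher, by 1.06 ± 0.26 (adjusted p = 0.0274). A second Pmvk probe differed by -0.90 in the same direction. In 10 of the 35 every LAT KO array lay below every Y136F array, against 9.61% of all features, and in 3 above, against 12.6%; the 10 included 6 of the 10 squalene to cholesterol genes. Ebp, which is X-linked, differed by -0.46 (adjusted p = 0.0775) and Mylip by 0.58 (adjusted p = 0.0656). Without both LAT KO arrays of contradicted sex label Pmvk passed at -0.71 (adjusted p = 0.0303) and Abca1 did not, at 0.91 (adjusted p = 0.158), and with labelled sex as a term neither passed. The median over the 35 genes was -0.20 with all arrays, -0.13 without both arrays and -0.022 with the sex term. Over all features the median with all arrays was 0.03, with 54.6% positive. The Pmvk call was lost with each array left out in turn (-0.77 to -0.67), and Abca1 passed in 1 of 6 such fits (0.91 to 1.19). Of the 18 proliferation markers 15 were lower in LAT KO cells, as were 3 of the 10 myeloid markers, and their part in these results was not tested. At 1 week no gene and no other feature was called (limma, 0%), with 4 of the 35 and 1802 of 31546 features at an unadjusted p under 0.05.

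Further genes of lipid metabolism, taken from lists of other sterol genes, other fatty acid and glycerolipid genes, and fatty acid oxidation, were compared between Y136F and WT cells at 4 weeks, where 2.48% of all features were higher and 0.916% lower. Of 20 other sterol genes 2 were higher and 1 was lower than in WT cells, with a median of 0.04 over the list. Tmem97, a sterol-responsive membrane protein, was higher by 0.88 (adjusted p = 0.011). Of 21 other fatty acid and glycerolipid genes 1 was higher, Mid1ip1, an activator of acetyl-CoA carboxylase, by 0.99 (adjusted p = 0.00552), with a median of -0.14. None of 17 fatty acid oxidation genes was called by limma (median -0.01, 1 at an unadjusted p under 0.05). Compared with Y136F cells at 4 weeks, LAT KO cells differed in further genes of these lists: Tmem97 and Mid1ip1 were lower (-0.83 and -0.89) and Lipa, the lysosomal acid lipase, was higher (0.83).

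The 27 measured genes with a promoter window can be set out by that motif for Y136F against WT cells at 4 weeks. The 19 with an NF-Y box had a median difference of 0.24 (-0.34 to 0.79) and the 8 without had 0.04 (-1.38 to 0.27). The 8 were Abca1, Nr1h2, Nr1h3, Scap, Acat2, Elovl6, Acaca and Fads2, so box and role in the pathway partly go together. Fdps, Sqle and Scd2, which were called higher, had no window used here and are not among the 27. This is a description of letters and values, and no test was made of it.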

How the data were processed

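Naive CD4+ T cells of 18 mice were measured on single-colour Agilent 4x44k arrays, 3 per group. Per the file headers, the authors' Agilent Feature Extraction 10.5.1.1 gave a processed signal intensity per spot, background-subtracted, with flags; the deposited value table holds log2 values of the same arrays that were quantile-normalised (equal maxima on all arrays) and serves as an alternative. Per the submitters' processing notes limma was also used. From the intensities, log2 of the processed signal minus each array's 75th percentile was taken, outlier spots and control spots were left out, and spots of a probe were averaged. Probes were named through their RefSeq accession (GRCm38.p6 gene table; 24844 of 41174 probes named) and kept when well above background on at least 3 arrays; the brightest probe stood for a gene, giving 31623 features. The test was limma (version 3.58.1, run under R 4.3.3 with statmod 1.5.0), fitting 1 mean per group over all 18 arrays, 12 residual degrees of freedom, an intensity trend (median prior degrees of freedom 5.43), with two-sided p-values adjusted by Benjamini-Hochberg across features and a threshold of 0.05. P-values measure the spread between mice. The number of arrays limits the precision. Genes named are the 36 listed ones, with all arrays' values for those past the threshold in any comparison, up to 4 called genes of each further list, and genes with adjusted p under 0.1 by value only. Some called genes of the further lists are not reported here. These genes, lists and tests were chosen with earlier results of these data known. Figures used Python 3.11.15 with matplotlib 3.10.9. Alternatives were normexp background correction (on median intensities, offset 50), quantile normalisation, the deposited log2 table, other probe rules, slide, sex or replicate number in the model, array weights and each array left out; labelled sex as a term without both LAT KO arrays was added after seeing the data.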

Additional observations from a re-analysis of the deposited data

How the results depend on the processing

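Counts of the 35 genes are given here by setting. With Y136F against WT at 4 weeks (4 higher, 1 lower), slide as a random block gave 7 higher, no intensity trend 2 higher, array weights 13 higher and 2 lower, and labelled sex as a term 0 higher and 0 lower; that term without both LAT KO arrays of contradicted sex label, a setting chosen after seeing the data, gave 1 higher. With LAT KO against Y136F at 4 weeks (1 higher, 1 lower), normexp and the mean of all probes gave 2 higher each, quantile normalisation and the log2 values as deposited 3 higher each, array weights 3 higher and 9 lower, the sex term with or without both arrays and no intensity trend 0 and 0, leaving out both arrays 0 higher, and slide as a fixed term 0 lower. For Y136F at 4 against 1 week (1 higher, 2 lower), quantile normalisation and the sex term with or without both arrays gave 2 higher, kept outlier spots and no intensity trend 0 higher, slide as a fixed term 0 higher and 1 lower, only the arrays compared 3 higher and 4 lower, and array weights 4 and 4. Where no gene was called otherwise, array weights gave 1 higher for Y136F against WT at 1 week, 6 higher and 1 lower for LAT KO against WT at 4 weeks, 1 lower for LAT KO over time, 1 higher and 4 lower for WT over time, and 2 higher and 1 lower for the change of the Y136F effect, where only the arrays compared gave 1 and 1. Leaving out single arrays gave 0 to 6 higher for Y136F against WT at 4 weeks, 0 to 1 in each direction for LAT KO against Y136F at 4 weeks and 0 to 1 higher for Y136F over time. Direction turned for Mvk in Y136F against WT at 4 weeks with normexp (-0.042), for Acaca there with the sex term without both arrays (-0.049) and for Fdft1 in LAT KO against Y136F at 4 weeks with the sex term (0.040). The cause of these differences was not tested.

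Over all pairs of groups, same-numbered arrays did not deviate together in the median (correlations -0.05, -0.02 and -0.06 by number, from -0.62 to 0.55). This median mixes genotypes and times, so it cannot exclude that the numbers pair mice of some groups. With the replicate number as a block, 0 genes were lower in LAT KO against Y136F at 4 weeks (Pmvk -0.72, adjusted p = 0.0532) and 0 higher in Y136F over time (Pmvk 0.62, adjusted p = 0.0626).

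The median of all features in Y136F against WT at 4 weeks was -0.19, and -0.06 after quantile normalisation, while the median of the 35 genes was 0.23 and 0.29. With labelled sex as a term the median of the 35 was 0.090, and 0.21 with that term without both LAT KO arrays. With 3 mice a group the number of arrays limits what can be detected.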

Other observations

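Probes of 1 gene did not always give the same difference. For Y136F against WT at 4 weeks, in a fit of single probes, the probes of Hsd17b7, a ketoreductase of sterol synthesis, differed by 0.12 and 0.58, while those of Pmvk differed by 0.66 and 0.74. For Mylip, Y136F at 4 against 1 week, the brighter probe differed by -0.80 and the dimmer one by -0.99.

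In Y136F cells at 4 against 1 week, Scd1, a stearoyl-CoA desaturase, had -2.86, -2.50 and -3.26 at 4 weeks, against -3.83, -3.66 and -4.51 at 1 week. The groups did not overlap, and the difference was 1.13 ± 0.35 (adjusted p = 0.057). Among other lipid genes in the same comparison, Mid1ip1 and Tmem97 were higher by 1.08 and 0.71 and Etfb, an electron transfer subunit of fatty acid oxidation, by 0.61. Acss2, a cytosolic acetyl-CoA synthetase, and Lipa were lower, at -0.95 and -0.76.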
